A study of Mus musculus with 8 samples.

Results

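The genes described here are 10 antiviral effector and restriction factors of the mouse, chosen by name: Rsad2, Cmpk2, Bst2, Isg20, Ifitm1, Ifitm2, Ifitm3, Apobec3, Adar and Zc3hav1. The count table holds rows for 9 of the 10, among 18088 genes in all, and Ifitm1 has no row and was not analysed here beyond its promoter. RNA sequencing was performed on differentiated 3T3-L1 adipocytes, which derive from a mouse embryo fibroblast line by hormonal induction and carry the genotype label wild type. Of 8 libraries, 4 came from cells transfected with siRNA targeting ERK3 (siERK3), the atypical MAP kinase encoded by Mapk6, and 4 from cells transfected with a nontargeting control siRNA (siNTC). In both groups mature adipocytes were detached, transfected in suspension with 1.25 nM siRNA per square centimeter and used 48 h later, and poly(A) RNA was sequenced from non-stranded libraries. The siRNAs were bought as pools, and the series has 1 targeting pool and no untransfected group, so effects of losing Erk3 and other effects of that pool cannot be told apart. Whether replicates were grown as separate cultures is not given in the sources used here, and p-values therefore measure the spread between these samples, which may be technical.

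Restriction factors are cell proteins that block a virus at a given step of its life cycle, such as entry into the cell, copying of its genome or release of new particles. Many are interferon-stimulated genes: type I interferon binds its receptor, the kinases JAK1 and TYK2 are activated, and a complex that contains STAT2 and IRF9 binds the interferon-stimulated response element (ISRE) in promoters. A different element, the gamma-activated sequence (GAS), is known from the response to interferon gamma. Most cell types, adipocytes included, carry the type I interferon receptor.

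The promoters of the 10 genes were searched for both elements, because the genes share this route of control in the textbook account. RefSeq (GRCm38.p6) gave 15 promoter windows for the 10 genes, each from 250 bases before to 50 bases after an annotated start, which is counted as base 1. The ISRE core, spelled as GAAA, any 2 bases and GAAA and read on both strands, was in 5 of the 15 windows, in 5 of the 10 genes. Of all 32851 promoter windows of the same length, 3.44% hold it. The stretches with the match, 30 bases on the strand of the gene and with the core letters in capitals, were as follows.
Rsad2, chr12:26456553-26456582, minus strand: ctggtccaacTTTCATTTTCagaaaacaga
Bst2, chr8:71537580-71537609, minus strand: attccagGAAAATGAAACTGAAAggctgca
Ifitm2, chr7:140955988-140956017, minus strand: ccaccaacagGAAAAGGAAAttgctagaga
Ifitm3, chr7:141010714-141010743, minus strand: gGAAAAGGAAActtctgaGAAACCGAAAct
Apobec3, chr15:79892258-79892287, plus strand: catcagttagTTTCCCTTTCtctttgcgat

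Bst2 and Ifitm3 each held 2 cores in the printed stretch, and those of Bst2 overlap. The Ifitm3 stretch lies just after the start, at bases 2 to 31 of the transcript, while the other 4 lie before it, from base -150 to base -121 in Apobec3, -137 to -108 in Bst2, -130 to -101 in Rsad2 and -56 to -27 in Ifitm2. The longer form with a C directly after the core was in 3 of the 15 windows, those of Bst2, Ifitm3 and Apobec3, against 0.819% of all windows. The GAS core, spelled as TTC, any 3 bases and GAA, reads alike on both strands. It was in 4 of the 15 windows, in the 4 genes Bst2, Isg20, Ifitm3 and Adar, against 8.30% of all windows. In Bst2 and in Ifitm3 the GAS match overlaps an ISRE match. The single windows of Cmpk2, Ifitm1 and Zc3hav1 held neither set of letters, which says nothing about other windows or about binding.

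**Figure D1:**
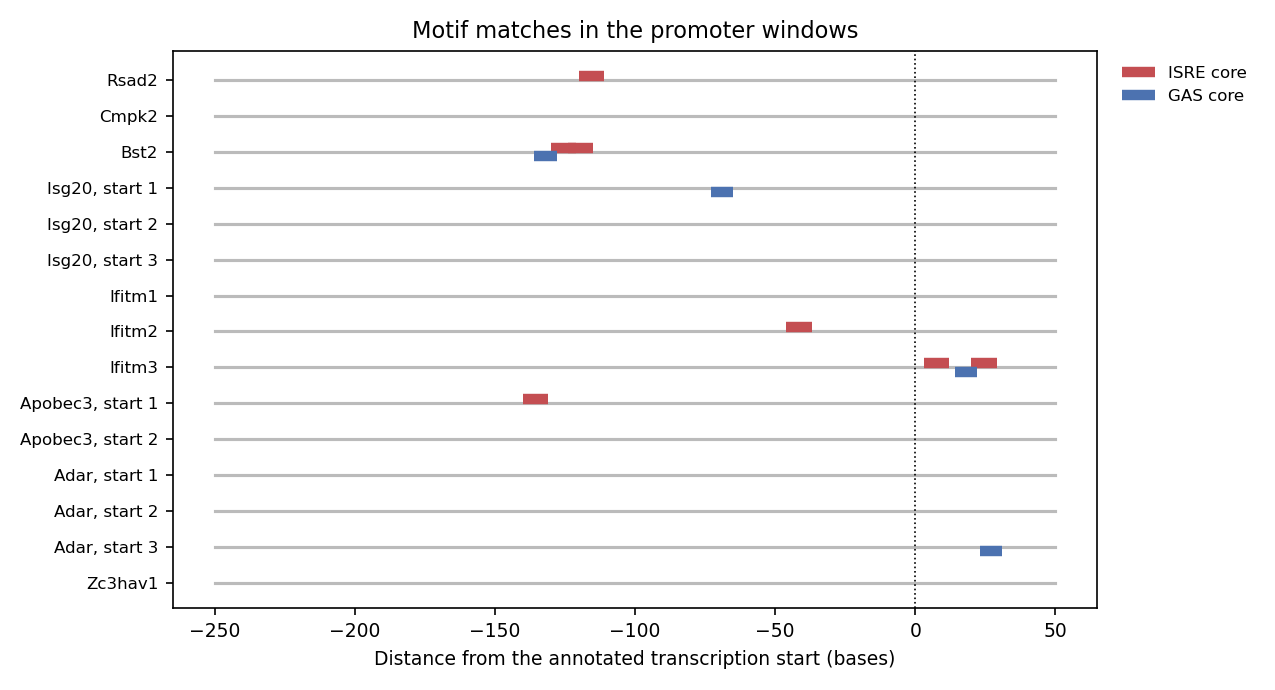
Matches to the ISRE core (red) and the GAS core (blue) in the 15 promoter windows of the 10 genes, plotted by distance in bases from the annotated transcription start (dotted line), with 1 grey line per window. ISRE matches appear in the windows of Rsad2, Bst2, Ifitm2, Ifitm3 and Apobec3, and those of Ifitm3 lie after the start.

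Total counts were 9854522 to 9943572 per library. The targeted gene, Mapk6 (ENSMUSG00000042688), had 579 ± 18.1 counts scaled to library size (CPM, after TMM scaling; SD, n = 4) in siNTC and 69.6 ± 4.80 in siERK3, a log2 fold change of -3.06 (SE 0.06; edgeR quasi-likelihood test, adjusted p = 2.09e-22). Of 17972 genes tested, 24.9% were called higher and 23.8% lower in siERK3 at a Benjamini-Hochberg adjusted p under 0.05. That split, 4470 against 4275 genes, moved to 5849 against 3139 with library sizes only and to 3556 against 5394 with upper-quartile factors. Adipocyte markers were in the table in full, 8 of 8, with a summed level of 28305 to 30707 CPM in siNTC and 16802 to 17767 CPM in siERK3. All 8 were called lower, with Lpl, Fabp4, Adipoq and Cidec the most abundant, although Pparg (-0.13) lost its call with library sizes only, with the likelihood-ratio test and when siNTC replicate 1 or 4 or siERK3 replicate 1, 3 or 4 was left out. Of the 8 preadipocyte markers, 6 were called lower, 1 higher (Ly6a) and 1, Cd34, was not in the table. Of 12 macrophage and leukocyte markers, 4 were in the table, and the defining markers Ptprc, Adgre1 and Itgam were not. Their summed level was 10.2 to 14.7 CPM in siNTC and 21.5 to 26.1 CPM in siERK3, with Cd68 and Cd14 called higher, and their part in the results below was not tested. Of 6 endothelial markers only Pecam1 was in the table, and it was not called. In bulk RNA, fewer cells of a type and less RNA per cell cannot be told apart.

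All 9 antiviral genes with a row were tested, and all 9 were called higher in siERK3, where 24.9% of all genes were. In all 9 genes every siERK3 library lay above every siNTC library, which held for 22.5% of all genes tested. Rsad2 and Cmpk2 met the rule of the table, above 1 CPM in at least 4 libraries, only through siERK3, so their presence here already required a higher level there, and their tests are no support for a rise. The other 7 exceeded 1 CPM in all 8 libraries, and their median log2 fold change was 2.21. The log2 fold changes ran from 0.55 for Ifitm2 to 10.87 for Rsad2, with a median of 3.05 against a median near 0 over all genes tested. The size of the change thus spread widely: 8 of the 9 were called with a fold change above 2, where 4.11% of all genes were called with at least that rise, and Ifitm2 rose 1.47-fold. The median moved between 2.98 and 3.14 over the scalings tried.

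**Figure D2:**
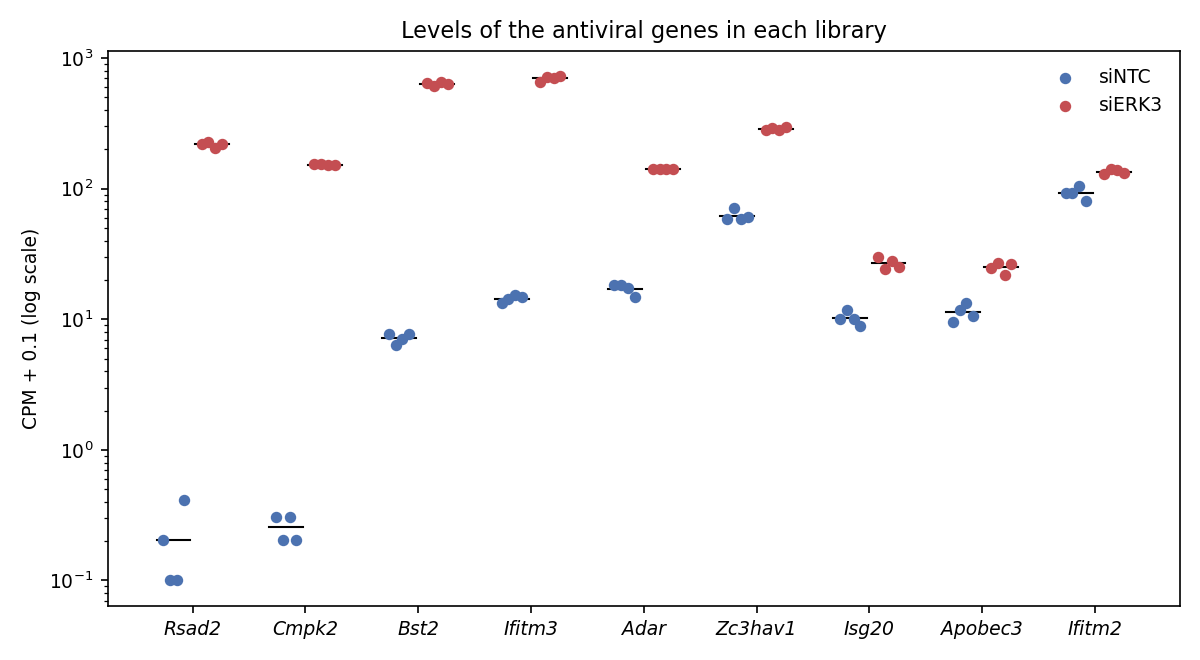
CPM plus 0.1, on a log scale, of the 9 antiviral genes in each of the 4 siNTC (blue) and 4 siERK3 (red) libraries, with the group mean as a black line, ordered by log2 fold change. The groups do not overlap in any gene, and the gap narrows from Rsad2, with 0 to 3 counts per siNTC library, to Ifitm2.

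Rsad2 and Cmpk2 had the largest log2 fold changes of the 9, and both were almost without reads in siNTC. Rsad2 (ENSMUSG00000020641, chr12:26442746-26456452, minus strand) encodes viperin, a radical SAM enzyme that turns CTP into a nucleotide which ends viral RNA chains. Its counts were 1, 0, 0 and 3 in the siNTC libraries and 2273, 2312, 2089 and 2241 in the siERK3 libraries. Scaled to library size, that is 0.105 ± 0.149 CPM against 218 ± 10.6 CPM (SD, n = 4). The siERK3 libraries lay close together, and all were far above the siNTC libraries, 2 of which had no read at all. The ratio of the summed counts, 8915 to 4 and scaled to library size, was 2093, with an exact 95% interval of 817 to 7682 that covers counting error only. The fitted log2 fold change was 10.87 (SE 0.16; edgeR quasi-likelihood test, adjusted p = 1.92e-24), and it depends on few control reads, since it was 12.17 without siNTC replicate 4, which held 3 of the 4 reads.

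Cmpk2 (ENSMUSG00000020638, chr12:26469204-26479837, plus strand) encodes a mitochondrial nucleoside monophosphate kinase, which phosphorylates UMP, CMP and their deoxy forms, and lies 12752 bases from Rsad2 with no other gene of the table between them. Counts of Cmpk2 were 2, 1, 2 and 1 in siNTC and 1601, 1563, 1554 and 1531 in siERK3. The 4 siERK3 values were nearly equal, at 151.3 to 154.7 CPM, a spread of 1.20% of the mean, under the 2.53% that counting error alone gives. The ratio of summed counts was 978 (exact 95% interval 449 to 2666, counting error only), and the fitted log2 fold change was 9.82 (SE 0.13; edgeR quasi-likelihood test, adjusted p = 2.01e-25). The intervals of the Rsad2 and Cmpk2 ratios overlap. The log2 ratio of Rsad2 to Cmpk2 counts, with 0.5 added to each, was 0.51 ± 0.06 in siERK3 and -0.86 ± 1.53 in siNTC (SD, n = 4), and the difference of 1.37 did not pass a two-sided exact permutation test (p = 0.143). The difference rests on few control reads, and it was 2.06 without siNTC replicate 4, 0.88 without siNTC replicate 3 and 1.12 to 1.41 without any other library.

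Bst2 (ENSMUSG00000046718, chr8:71534255-71537456, minus strand) encodes tetherin, a membrane protein that holds budding virus particles at the cell surface. It had 7.60, 6.30, 6.99 and 7.57 CPM in the siNTC libraries and 644, 606, 659.5 and 636 CPM in the siERK3 libraries. Unlike Rsad2, Bst2 had reads in every control library, with 273 counts summed over siNTC. It was 89.3 times higher in siERK3, a log2 fold change of 6.48 (SE 0.07; edgeR quasi-likelihood test, adjusted p = 2.36e-26). The promoter of Bst2 is the one with overlapping ISRE cores printed above.

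The IFITM proteins sit in the plasma membrane and endosomes and hinder the fusion of enveloped viruses with them. Ifitm2 and Ifitm3 lie on the minus strand of chromosome 7 with the row-less Ifitm1 between them, yet their changes were far apart. Ifitm3 (ENSMUSG00000025492, chr7:141009586-141010770) had 13.1, 14.2, 15.1 and 14.6 CPM in siNTC and 657, 713, 707 and 729.7 CPM in siERK3. No siERK3 library came near a siNTC library, and the change was 49.2-fold, a log2 fold change of 5.62 (SE 0.07; edgeR quasi-likelihood test, adjusted p = 8.83e-26). Ifitm2 (ENSMUSG00000060591, chr7:140954837-140955987) had 92.6, 92.0, 104 and 79.7 CPM in siNTC and 129.7, 140.6, 138 and 133 CPM in siERK3. The groups of Ifitm2 were close but did not overlap, and its log2 fold change was 0.55 (SE 0.06; edgeR quasi-likelihood test, adjusted p = 1.49e-07). Tested against a 2-fold change instead of no change, Ifitm2 was not called (adjusted p = 1).

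The more abundant member of the pair therefore switched. Ifitm3 made up 12.4%, 13.3%, 12.7% and 15.5% of the summed Ifitm2 and Ifitm3 counts in the siNTC libraries and 83.5%, 83.5%, 83.7% and 84.6% in the siERK3 libraries. The mean share went from 13.5% ± 1.39 to 83.8% ± 0.514 (SD, n = 4), a difference of 70.3 percentage points. The 2 sets of shares were widely separated, and a two-sided exact permutation test gave p = 0.0286, the smallest that 4 against 4 samples allow, and 0.0571 after Benjamini-Hochberg adjustment over the 2 ratios tested, which is above 0.05. The share was higher in 4 of 4 siERK3 libraries than in any siNTC library.

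Reads of the IFITM genes can be hard to place, because close copies exist. Of the 30-base stretches of Ifitm2 transcripts, 56.1% also occur in another gene of the annotation, against 21.3% for Ifitm3. A readthrough gene on the same strand, Gm45717, covers 268 bases (40.9%) of the exons of Ifitm2. It holds 38.2% of the stretches of Ifitm2, and that part reflects the same place in the genome, not a copy elsewhere. The pseudogenes Gm8865 on chromosome 14 and Gm11951 on chromosome 11 hold 24.1% and 22.4%. Counts of Gm45717 exceeded those of Ifitm2 by only 4 to 18 in each library, so the values of the pair are not independent. Ifitm2 holds 6.16% of the stretches of Ifitm3, and its rise of 43.2 CPM equals 6.28% of the rise of 687 CPM in Ifitm3. The pseudogene Gm7676 on chromosome 8 shares 7.55% of the stretches of Ifitm3 and went from 1.56 ± 0.428 to 56.7 ± 2.24 CPM (SD, n = 4), a rise equal to 8.02% of that of Ifitm3. The pseudogene Gm6885 on chromosome 9 shares 5.24% and went from 0.0258 to 5.68 CPM, a rise equal to 0.823% of that of Ifitm3. Gm11951 shares 6.16%, as Ifitm2 does, and rose by 1.34 CPM, which equals 0.196% of the rise of Ifitm3. How many reads of Ifitm2 or of these pseudogenes came from Ifitm3 was not tested, so the small rise of Ifitm2 is uncertain. The neighbour Ifitm6, 4929 bases from Ifitm3, stayed low, with 13 counts summed over siNTC and 88 over siERK3. The ratio was 6.36 (exact 95% interval 3.53 to 12.4, counting error only), and Ifitm6 was called higher. It met the rule of the table only through siERK3, so that call is no support for a rise. Ifitm5, Ifitm7 and Ifitm10 were not in the table.

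Adar, Zc3hav1 and Isg20 act on RNA. Adar (ENSMUSG00000027951, chr3:89715022-89753446, plus strand) encodes the deaminase that turns adenosine into inosine in double-stranded RNA, which keeps the cell's own RNA from being sensed as viral. It had 18.1, 18.1, 17.1 and 14.8 CPM in siNTC and 141.1, 141.9, 142.2 and 140.9 CPM in siERK3. The siERK3 libraries differed by 0.447% of their mean (SD), less than the 2.63% of counting error alone, and the change was 8.30-fold, a log2 fold change of 3.05 (SE 0.06; edgeR quasi-likelihood test, adjusted p = 1.53e-21). Counts per gene cannot separate the interferon-inducible and the constitutive isoform of Adar. Chrnb2, a nicotinic receptor subunit on the opposite strand, overlaps 1365 bases (16.8%) of the Adar exons and went from 12.2 ± 1.58 to 71.1 ± 1.04 CPM (SD, n = 4). Its rise of 58.9 CPM equals 47.3% of the rise of 124.5 CPM in Adar. As the strand was not marked, reads of Chrnb2 and of Adar cannot be told apart where they overlap.

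Zc3hav1 (ENSMUSG00000029826, chr6:38305286-38354603, minus strand) encodes the zinc finger antiviral protein ZAP, which binds CpG-rich viral RNA and brings about its decay. Its level was 59.0, 70.8, 58.7 and 60.2 CPM in siNTC and 281, 291, 281 and 297 CPM in siERK3. Replicate 2 of siNTC stood above the other controls, and all siERK3 libraries were still far above it. Zc3hav1 was 4.63 times higher, a log2 fold change of 2.21 (SE 0.06; edgeR quasi-likelihood test, adjusted p = 3.26e-19). Isg20 (ENSMUSG00000039236, chr7:78913424-78920396, plus strand) encodes an exonuclease that degrades single-stranded RNA and DNA from the 3' end. Its level was 9.89, 11.7, 10.02 and 8.84 CPM in siNTC and 29.9, 24.1, 27.9 and 24.9 CPM in siERK3. The siERK3 libraries spread by 10.02% of their mean, the widest of the 9 genes in that group, without reaching the controls. The change was 2.64-fold, a log2 fold change of 1.40 (SE 0.10; edgeR quasi-likelihood test, adjusted p = 3.41e-11).

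Apobec3 (ENSMUSG00000009585, chr15:79891659-79915906, plus strand) encodes a cytidine deaminase that is packaged into retroviral particles and restricts retroviruses. It had 9.48, 11.8, 13.3 and 10.4 CPM in siNTC and 24.6, 26.8, 21.9 and 26.2 CPM in siERK3. The lowest siERK3 library was well above the highest control, and the change was 2.21-fold, a log2 fold change of 1.15 (SE 0.10; edgeR quasi-likelihood test, adjusted p = 1.63e-09). Tested against a 2-fold change, it was not called (adjusted p = 0.579). Cbx7, on the opposite strand, overlaps 100 bases (1.06%) of the Apobec3 exons and was itself not called (log2 fold change 0.22, adjusted p = 0.177 by the same test).

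To compare genes with each other, levels were divided by exon length and expressed as RPKM (CPM after TMM scaling, per kilobase of merged exons). In siNTC the order of RPKM from high to low was Ifitm2 (140.5), Ifitm3 (21.03), Zc3hav1 (9.53), Bst2 (7.88), Isg20 (5.43), Adar (2.10), Apobec3 (1.19), Cmpk2 (0.0376) and Rsad2 (0.0242). Neighbours in that order did not overlap between libraries, except Cmpk2 and Rsad2. In siERK3 the order was Ifitm3 (1035), Bst2 (705), Ifitm2 (206.4), Rsad2 (50.3), Zc3hav1 (44.1), Cmpk2 (36.7), Adar (17.4), Isg20 (14.4) and Apobec3 (2.63), with no overlap between neighbours. Ifitm3 and Bst2 overtook Ifitm2, and Rsad2 went from last to above Zc3hav1. Among the 18050 genes with a length, Ifitm3 ranked 42 and Bst2 61 in siERK3, from 3365 and 7545 in siNTC. Rsad2 and Cmpk2 ranked 1461 and 2027 in siERK3, from 18012 and 18001, whereas Apobec3 stayed low, at 13067 from 15446. The length of Apobec3, 9454 bases, merges the exons of 20 annotated transcripts. In siERK3 its 24.9 CPM were close to the 26.7 CPM of Isg20, with 1860 bases, so its low place depends on the length used.

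**Figure D3:**
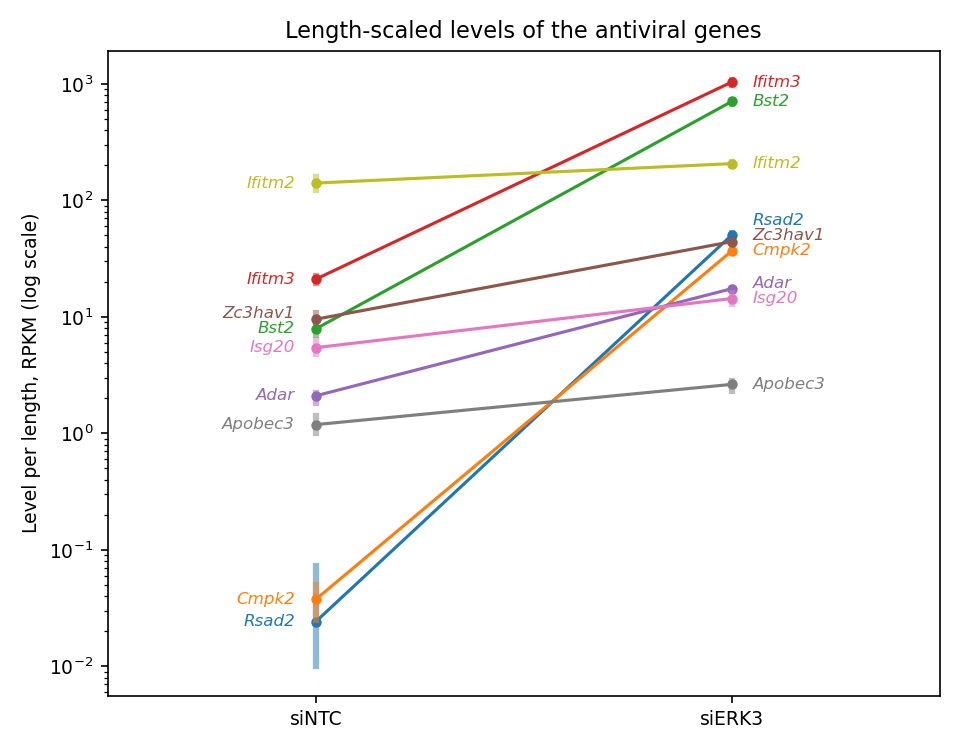
Mean RPKM of the 9 antiviral genes on a log scale in siNTC (left) and siERK3 (right), with thick bars from the lowest to the highest of the 4 libraries (libraries without reads drawn at 0.01) and a line joining the group means of each gene. Ifitm3 and Bst2 pass Ifitm2, and Rsad2 and Cmpk2 rise from the bottom into the middle of the order.

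The 9 genes together had 214 ± 13.7 CPM in siNTC and 2325 ± 32.99 CPM in siERK3 (SD, n = 4), a ratio of 10.9. Their share of all counts went from 0.0208% to 0.240%. The make-up of that sum changed as well. In siNTC, Ifitm2 gave 42.9% and Zc3hav1 29.0% of the summed counts. In siERK3, Ifitm3 gave 30.2% and Bst2 27.4%, while Ifitm2 gave 5.82% and Zc3hav1 12.4%. Rsad2 went from 0.0525% to 9.39% of the sum and Cmpk2 from 0.0728% to 6.58%. The make-up was alike in the 4 libraries of a group: the share of Ifitm3, for instance, was 6.25% to 7.44% in siNTC and 28.8% to 30.9% in siERK3.

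**Figure D4:**
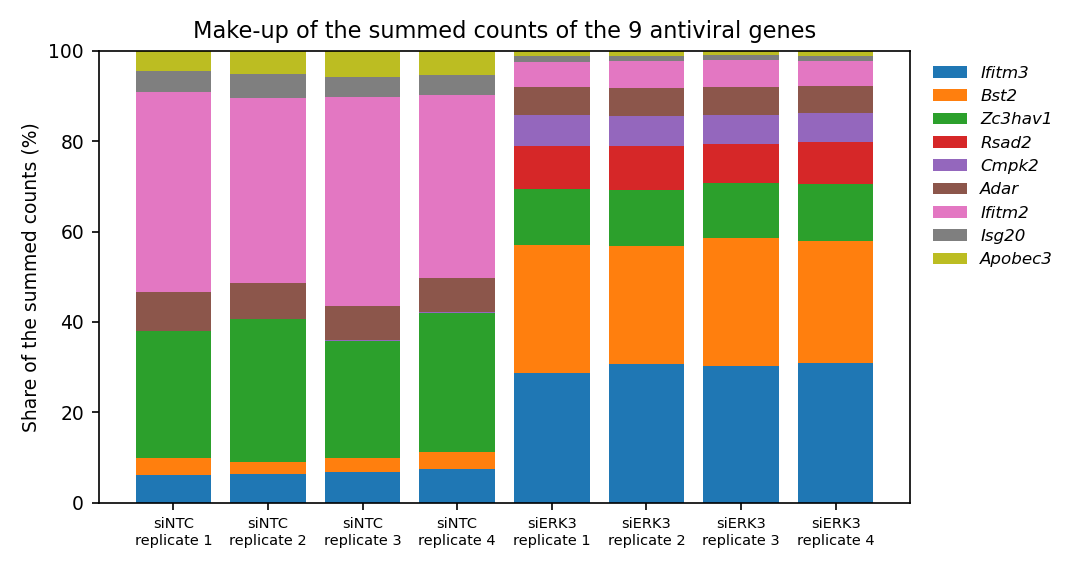
Share of each gene, in percent, in the summed counts of the 9 antiviral genes, with 1 stacked bar per library, siNTC on the left and siERK3 on the right. Ifitm2 and Zc3hav1 fill most of the siNTC bars, and Ifitm3 and Bst2 most of the siERK3 bars.

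Of 21 listed paralogs and cofactors of these proteins, 17 were tested, of which 7 were called higher, 6 lower and 4 were not called, with a median log2 fold change of 0.09, where 24.9% of all genes were called higher and 23.8% lower. Ifitm6 was in the table only through siERK3, and of the other 16, 6 were called higher and 6 lower, with a median log2 fold change of 0.066. The partners of ZAP went different ways. Trim25, a ubiquitin ligase needed for ZAP activity, went from 75.7 ± 3.21 to 453 ± 11.2 CPM (log2 fold change 2.58), whereas Khnyn, a nuclease that works with ZAP, went from 52.4 ± 5.47 to 42.1 ± 4.03 CPM (-0.32), with overlapping groups. Both changes were called, as was that of N4bp1, a relative of Khnyn (0.91, 56.8 ± 3.77 to 106 ± 5.03 CPM). The paralog Zc3hav1l, 6027 bases from Zc3hav1, was called lower (-1.29), with 5.24 ± 0.594 CPM in siNTC and 2.13 ± 0.488 CPM in siERK3.

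The nucleotide enzymes related to Cmpk2 showed no shared direction. Samhd1, a dNTP hydrolase that restricts retroviruses and is also in the list of other effectors below, was called higher (1.78, 54.2 ± 2.46 to 186 ± 2.89 CPM), and the thymidylate kinase Dtymk (-0.43) and the thymidine phosphorylase Tymp (-0.32) were called lower, the latter not with library sizes only. The cytosolic kinase Cmpk1 was not called (0.13, adjusted p = 0.115 by the edgeR quasi-likelihood test), but was called higher with library sizes only or without siNTC replicate 4. Vapa, a membrane protein that IFITM3 and viperin bind, was called higher (0.39), and Ciao1, which helps load the iron-sulfur cluster of viperin, was not called (0.04). Of the paralogs of Adar, Adarb1 was called lower (-0.20), with overlapping groups and a call that was lost with DESeq2, with library sizes only and when replicate 1 or 2 of either group was left out. Adarb2 was also called lower (-0.46), with groups that did not overlap and a call lost only in the test against a 2-fold change, and Adad1 was not called (-0.08). Apobec1, a listed paralog of Apobec3, was called higher (1.37, 30.1 ± 2.51 to 78.0 ± 5.33 CPM), with groups that did not overlap, and Apobec2 was not in the table.

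The tested genes nearest to the 9 on the chromosome without overlapping them, chosen by position alone, had log2 fold changes of -1.29 (Zc3hav1l) to 0.87 (Mvb12a). That leaves aside Rsad2, Cmpk2 and Ifitm6. Beside the Rsad2 and Cmpk2 pair, Rnf144a was called lower (log2 fold change -0.29) and Gm46344 was not called. Mvb12a, 5466 bases from Bst2, was called higher (0.87), and Plvap on its other side was not called. Aen, an exonuclease gene 2215 bases from Isg20 and of the same family, was called higher (0.39), from 13.5 ± 0.845 to 17.6 ± 1.85 CPM. On the 2 sides of Adar, Pmvk (-0.60), 246009 bases away, and 4632404H12Rik (-0.57), 14065 bases away, were called lower. The overlapping Chrnb2, described above, was higher (2.54) and is not among these neighbours. Rpl3, 161885 bases from Apobec3, was called lower (-0.21), though not with library sizes only.

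Among 26 other antiviral effectors listed, 25 were tested, and 21 were called higher, 2 lower and 2 were not called, with a median log2 fold change of 3.33 against 0.000946 over all genes, of which 24.9% were called higher and 23.8% lower. Of the 25, 7 were in the table only through siERK3, and the other 18 had a median log2 fold change of 2.00 (14 higher, 2 lower). The most abundant of those called higher were Lgals3bp, a secreted glycoprotein (3.33, 141 ± 10.7 to 1425 ± 41.1 CPM), Ifit3 (8.40, 2.76 ± 0.509 to 939 ± 17.5 CPM) and Ifit2 (8.27, 1.49 ± 0.220 to 461 ± 39.7 CPM), both of the IFIT family of RNA-binding antiviral complexes, and Serinc3, a membrane protein built into virions (0.45, 195 ± 7.29 to 267 ± 12.3 CPM). Ifi27, a mitochondrial protein, was called lower (-1.07, 284 ± 17.4 to 135 ± 7.40 CPM), as was Zc3h12a, an RNase that degrades cytokine mRNA (-0.42). Marchf8 (0.05) and Serinc5 (0.06) were not called, although Marchf8 was called higher with library sizes only. Ch25h was not in the table. The list was thus not uniform, and its log2 fold changes ran from -1.07 to 11.28. The upper end belongs to a gene that was in the table only through siERK3.

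Of 11 genes of the interferon pathway, 10 were tested, 9 were called higher and 1 lower, with a median log2 fold change of 1.09, where over all genes 24.9% were called higher and 23.8% lower and the median was 0.000946. Log2 fold changes of Irf1, Irf7, Irf9 and Stat2 ran from 1.30 to 5.41, and those of the receptor subunits and kinases from 0.18 to 0.87. Stat2 went from 23.7 ± 1.32 to 273 ± 2.72 CPM (3.53) and Irf7, which drives interferon genes, from 7.04 ± 0.586 to 301 ± 13.03 CPM (5.41). Irf9, the partner of STAT2 in the ISRE-binding complex, had a log2 fold change of 2.90 and was called higher too. Jak1 went from 173 ± 5.10 to 196 ± 6.38 CPM (0.18), a call lost with upper-quartile factors (adjusted p = 0.0599). Irf3, which acts upstream of interferon, was called lower (-0.25, edgeR quasi-likelihood test, adjusted p = 0.00541), a call lost with library sizes only (-0.17, adjusted p = 0.0643). Ifnb1, the gene of interferon beta, was not in the table, which holds only genes above 1 CPM in at least 4 libraries.

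**Figure D5:**
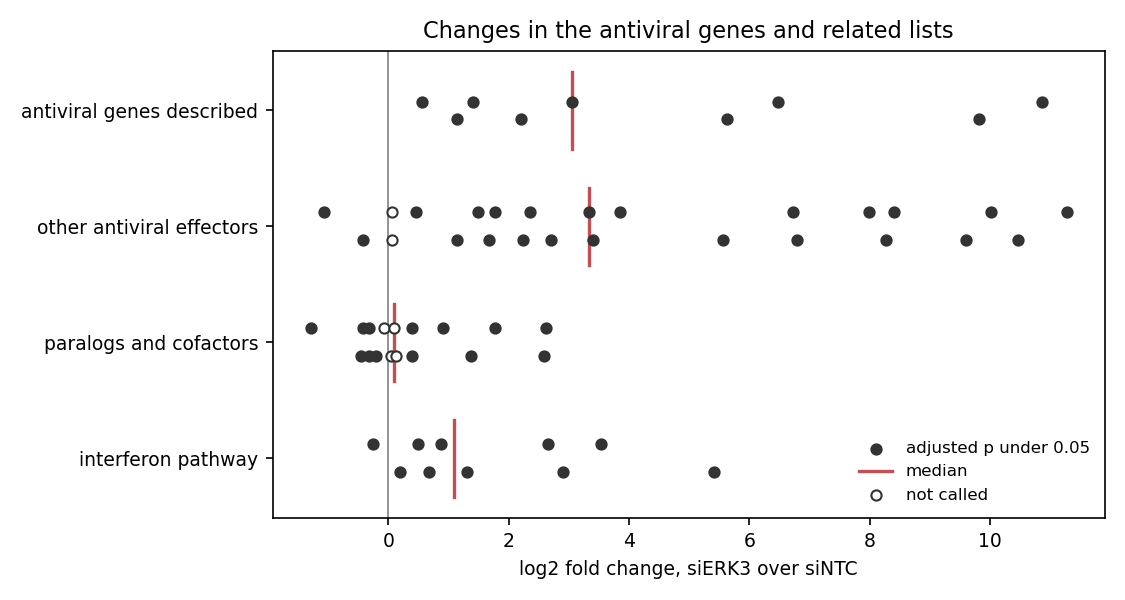
Horizontal axis, log2 fold change (siERK3 relative to siNTC) of every gene tested in the 9 antiviral genes and in 3 related lists, with filled points for an adjusted p under 0.05, open points otherwise and a red line at the median of each list. The medians are 3.05, 3.33, 0.09 and 1.09, and the paralogs and cofactors lie on both sides of 0. Without the genes that were in the table only through siERK3, the first 3 medians are 2.21, 2.00 and 0.066.

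Many genes shared the pattern of the 9 over the libraries, as they would with 2 well separated groups. By Pearson's r over the 8 libraries with the mean standardized log2 CPM of the 9, the nearest of 17802 other genes averaging 1 CPM or more were Igtp (r = 0.9996), an interferon-inducible GTPase, Trim34a (0.9995), Tap1 (0.9993), a peptide transporter of antigen presentation, and the unnamed genes Gm15753 (0.9992) and Gm20547 (0.9991). The value was at least 0.99 in 362 genes, so the order among them carries little information. Igtp went from 3.41 to 170 CPM on average, and Tap1 from 20.1 to 244 CPM.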

How the data were processed

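RNA sequencing of 8 libraries, 4 siNTC and 4 siERK3, was analysed, with groups taken from the sample labels. The authors deposited raw read counts per gene for 18088 genes, all of which exceed 1 CPM in 4 libraries or more. The processing notes of the submitters name bcl2fastq, FastQC, Bowtie2, edgeR and build mm10, and the counting program, annotation and strand setting are not given in the sources used here. The authors also deposited a table of their own comparison, with log2 fold changes and p-values, which was not used.

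The counts were fitted by the quasi-likelihood method of edgeR 4.0.16 under R 4.3.3 (default filterByExpr, that is a count minimum of 10 and a total of at least 15; TMM factors of 0.960 to 1.047; Benjamini-Hochberg adjustment, calls at an adjusted p under 0.05). The study names edgeR but no test. Library sizes were 9854522 to 9943572 counts, the common biological coefficient of variation was 6.08%, and intervals cover counting error only (no molecular identifiers are named, so PCR copies may count as reads). Replicates of a group differed by more than sampling noise in all 12 pairs (chi-square per gene 1.97 to 8.20). Alternatives were DESeq2 1.42.0, limma-voom (limma 3.58.1), RLE and upper-quartile factors, library sizes only, other filters, the likelihood-ratio test, a 2-fold threshold, the replicate number as a block and leaving out each library. Exon lengths, overlaps and shared 30-base stretches came from GENCODE M21 (same build, 18050 of 18088 IDs found), and promoters from RefSeq. Permutation tests and intervals used Python 3.11.15 with scipy 1.17.1. The scripts were tested on simulated data.

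The genes and lists were chosen with earlier results of these data known. Named are the 10 genes, Mapk6, and of each other list the 4 most abundant called genes per direction and up to 2 uncalled genes, genes without counts in a group, the 5 genes closest in pattern, and neighbours or overlapping genes by position. Others named (Ifitm6, Adarb2, Adad1 and Apobec1 as paralogs, Irf1, Irf9, the pseudogenes, and some markers) were chosen after their values were seen. A gene that the rule names is not reported here.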

Additional observations from a re-analysis of the deposited data

Results flagged for a closer look

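In 26 groups of 4 values tested for a single library far from the other 3, 2 were flagged, and chance flags about 1 in 20 groups (1.3 of 26). Zc3hav1 in siNTC replicate 2 was at 70.8 CPM, while the other siNTC libraries were at 58.7 to 60.2 CPM. The Ifitm3 share of the summed Ifitm2 and Ifitm3 counts was 84.6% in siERK3 replicate 4 and 83.5% to 83.7% in the other siERK3 libraries. Both departures are small beside the differences between the groups.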

How the results depend on the processing

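Rsad2 and Cmpk2 were in the table only through siERK3, so their calls in any fit are no support for a rise. All 9 antiviral genes were called higher under 17 of 18 other fits, and under the other, a test against a 2-fold change, 7 were. There Ifitm2 (0.55, adjusted p = 1) and Apobec3 (1.15, adjusted p = 0.579) lost their calls, and the counts fell to 495 higher and 113 lower over all genes, 0 lower among the other antiviral effectors, 4 higher and 0 lower among the paralogs and cofactors, and 5 higher and 0 lower in the interferon pathway, since that test asks for a larger change. The only lower call of the pathway was also lost with library sizes only (0 lower), where the median log2 fold change of all genes moved by 0.086. The median log2 fold change of the 9 genes was 2.98 with upper-quartile factors and 3.14 with library sizes only, and 2.21 without Rsad2 and Cmpk2, an alternative chosen after seeing the data (7 of 7 called higher). Leaving out 1 library at a time gave 4117 to 4350 genes called higher and 3839 to 4131 called lower, a median log2 fold change of the 9 genes of 2.99 to 3.08, 7 to 8 paralogs and cofactors called higher and 5 to 6 lower, a difference in the Ifitm3 share of 69.98 to 71.0 points and a log2 difference in the Rsad2 to Cmpk2 ratio of 0.88 to 2.06. The log2 fold change of Rsad2 was then 10.49 to 12.17.

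Whether the replicate numbers pair the samples cannot be told from the deviations. Those of same-numbered libraries correlated at 0.063, 0.066, 0.232 and -0.021. The value of replicate 3, 0.232, was the highest of any pair. In contrast, siNTC replicates 1, 2 and 4 correlated best with siERK3 replicates 4, 4 and 2 (0.178, 0.126 and 0.174). With the replicate number as a block, 4501 genes were called higher and 4292 lower. All 9 antiviral genes were called higher, and the calls of Rsad2 and Cmpk2 again are no support. Depth limits Rsad2 and Cmpk2, whose control levels rest on 4 and 6 counts in all.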
